A study of Mus musculus with 12 samples.

Results

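The genes described here encode the proteins of the cytosolic ribosome. They were all gene symbols in the count files that begin with Rpl or Rps followed by a digit, together with Rplp0, Rplp1, Rplp2 and Rpsa, leaving out the S6 kinases (Rps6k), Rps19bp1 and names that mark a pseudogene or an opposite-strand transcript. This gave 87 of the 24421 genes in the files. By their known place in the ribosome, 43 encoded proteins of the large (60S) subunit, 31 proteins of the small (40S) subunit and 3 the stalk proteins of the 60S subunit, while 8 were paralogs of a core gene and 2 were retrocopies. The study asked how raised glucose uptake affects cardiomyocytes of the newborn mouse heart, and the 12 libraries are bulk RNA-seq of cells sorted at postnatal day 1 from mice of the CD1 strain. Of these, 4 libraries were Tnnt2low and 4 were Tnnt2high cardiomyocytes from Glut1 transgenic hearts. These mice carry the aMHC-hGLUT1tg transgene, in which the αMHC promoter drives human GLUT1 in cardiomyocytes, with aMHC-Cre tg and the R26+/YFP reporter, through which Cre switches on YFP in the cardiomyocyte lineage. The other libraries were 2 Tnnt2low and 2 Tnnt2high samples from WT hearts. Their labels say only wild type, and the design text gives them the same Cre and YFP reporter. In the labels the populations are Mitotracker higher and lower, which the paper describes as Tnnt2low and Tnnt2high respectively. The groups are called Glut1 Tnnt2low, Glut1 Tnnt2high, WT Tnnt2low and WT Tnnt2high below, and values follow the replicate numbers. Each Glut1 transgenic heart gave 1 library of each population. The WT replicates carry the same heart number in their labels and may come from 1 heart. The p-values of comparisons with WT rest on a fit whose spread was estimated over all 12 libraries, those of Glut1 included. If the WT libraries come from 1 heart, these p-values do not measure the spread between WT hearts. The labels' extraction text speaks of dissected hearts, whereas the paper describes sorted cells.

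Tnnt2, cardiac troponin T, which gives the populations their names, stood at 13904, 13140.4, 12660.5 and 13976 CPM in Glut1 Tnnt2low and 18731, 20829.9, 16086 and 16177 CPM in Glut1 Tnnt2high (log2 fold change −0.42, SE 0.09, edgeR adjusted p = 0.00723). In WT it stood at 15741 and 16730.5 CPM in WT Tnnt2low and 16254 and 17201 CPM in WT Tnnt2high (log2 fold change −0.04, SE 0.13, edgeR adjusted p = 1.00). The populations separated in the Glut1 transgenic libraries but differed little in Tnnt2 mRNA in WT. CPM are counts scaled to an equal number of reads in genes with TMM factors. The 8 cardiomyocyte markers, none of them at 0 in any group, summed to 110987 to 133341 CPM over all 12 libraries. At an edgeR adjusted p under 0.05, 3 of the 8 were lower and 1 higher in Glut1 Tnnt2low than in Glut1 Tnnt2high. The shares of all genes were 8.33% and 8.42%. Of the 8 log2 fold changes, 5 were negative and 3 positive (median −0.35, range −0.91 to 0.61). Reads assigned to genes numbered 4065306 to 9815069 per library and were fewer in every Glut1 Tnnt2high library (at most 5241475) than in every Glut1 Tnnt2low library (at least 7301762). The number of reads outside exons per read in a gene also differed. In Glut1 it was 0.962 ± 0.0758 in Tnnt2low and 2.38 ± 0.169 in Tnnt2high (SD, n = 4 each), and in WT it was 1.31 ± 0.258 and 1.67 ± 0.228 (SD, n = 2 each).

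A ribosome joins 1 copy of nearly all of these proteins with the ribosomal RNAs, so cells usually make them in step. Their messenger RNAs are short, abundant in growing cells, and begin with a run of pyrimidines at the 5′ end, the 5′ terminal oligopyrimidine (5′TOP) motif, through which mTORC1 and Larp1 control their translation. Mammalian genomes also hold many processed pseudogenes of these genes, intronless copies of the mRNA, so that a short read from the parent gene often fits more than 1 place and may be set aside as a read with several alignments. In striated muscle the core protein Rpl3 has a muscle paralog, Rpl3l.

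The start sites of 6 members called lower in Glut1 Tnnt2low cells, chosen to span long and short pyrimidine runs, and of the muscle paralog Rpl3l are printed below, to show how far the 5′TOP feature can be seen at the annotated starts. The stretches are 30 bases long and begin 10 bases before the gene's start in the RefSeq promoter table (GRCm38.p6), and capitals mark the longest pyrimidine run that touches the 5 bases on either side of that start. Rpl35 lies at chr2:39005112-39005141 (minus strand), Rpl13a at chr7:45128726-45128755 (minus strand), Rps18 at chr17:33955646-33955675 (minus strand), Rplp0 at chr5:115559457-115559486 (plus strand), Rpsa at chr9:120127756-120127785 (plus strand), Rpl24 at chr16:55966265-55966294 (plus strand) and Rpl3l at chr17:24727816-24727845 (plus strand).
Rpl35: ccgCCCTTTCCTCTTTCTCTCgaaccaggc
Rpl13a: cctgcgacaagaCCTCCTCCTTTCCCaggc
Rps18: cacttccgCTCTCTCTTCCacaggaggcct
Rplp0: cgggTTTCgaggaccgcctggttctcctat
Rpsa: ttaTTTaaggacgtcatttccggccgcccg
Rpl24: gctgTTgctaggaaacagactgggcgctcg
Rpl3l: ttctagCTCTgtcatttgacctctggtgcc
The run was 18 bases long in Rpl35, 14 in Rpl13a and 11 in Rps18, but 4 in Rplp0, 3 in Rpsa and 2 in Rpl24, and 4 in Rpl3l. Of the 66 members in the RefSeq table, 33 (50%) had a run of at least 6 bases of C or T there, against 24.0% of all 27025 genes in the table. Members called lower in Glut1 Tnnt2low had runs of 1 to 21 bases, with at least 6 in 19 of 33, and the tested members not called had runs of 1 to 20 bases, with at least 6 in 9 of 26. Only the transcribed strand was searched, and the match depends on the annotated start, which may lie some bases from the start used in these cells.

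As a class, the ribosomal protein genes took a smaller share of the reads counted to genes in Glut1 transgenic Tnnt2low than in Tnnt2high cells. Their summed level was 9277, 9677, 9666 and 10007 CPM in the 4 Glut1 Tnnt2low libraries and 21653, 21264, 18593 and 16626 CPM in the 4 Glut1 Tnnt2high libraries. The groups did not overlap, and the lowest Tnnt2high library lay well above the highest Tnnt2low library. In WT the sum was 9483 and 12785 CPM in Tnnt2low and 18046 and 12604 CPM in Tnnt2high. The WT populations overlapped, since replicate 2 of Tnnt2low was slightly above replicate 2 of Tnnt2high. The group means were 9657 ± 299 (SD, n = 4), 19534 ± 2368 (SD, n = 4), 11134 ± 2334 (SD, n = 2) and 15325 ± 3848 CPM (SD, n = 2) in the same order of groups. In bulk samples, fewer cells of a type and less RNA per cell cannot be told apart. A summed CPM is a share of the reads counted to genes, not of all records in a library and not an amount per cell. Reads in genes made up a mean of 34.1% of the records in Glut1 Tnnt2low and 18.8% in Glut1 Tnnt2high. Reads counted to the members numbered 76170 to 97030 and 70068 to 107297 in these groups, which overlapped. The members' share of all records was not tested.

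**Figure D1:**
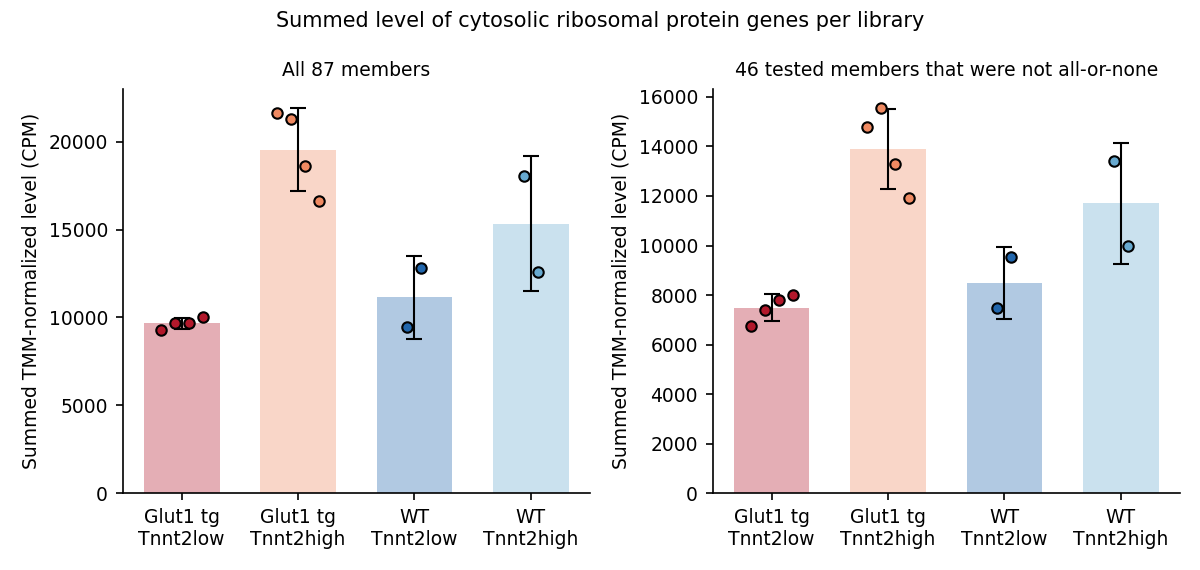
Summed level (CPM after TMM scaling) of all 87 ribosomal protein genes (left) and of the 46 steady ones (right), with 1 point per library, bars for the group means and error bars for the SD. On the left, the 4 Glut1 Tnnt2low libraries sit between 9277 and 10007 CPM and the 4 Glut1 Tnnt2high libraries between 16626 and 21653 CPM, whereas the WT populations overlap.

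The members differed widely in how steadily they were counted. A member was taken as all-or-none where its highest library was at least 8 times its lowest (a library at 0 set to 3 reads) and reached at least 10 CPM. By this rule 33 members were all-or-none and 46 of the 79 members tested were steady, while 8 members had too few reads to test. Steady here means only that the rule was not met. Among the 44 steady members with a coding sequence, the ratio of highest to lowest library ran from 1.81 to 33.4, and those at 8 or more never reached 10 CPM. The steady members summed to 7491 ± 539 CPM in Tnnt2low and 13884 ± 1617 CPM in Tnnt2high of Glut1 hearts (SD, n = 4 each), and to 8497 ± 1460 and 11698 ± 2430 CPM in those of WT hearts (SD, n = 2 each). The all-or-none members summed to 2165 ± 284, 5648 ± 902, 2635 ± 874 and 3625 ± 1417 CPM (SD) in the same groups. Of the untested members, the testis-type paralogs Rpl10l and Rpl39l, the retrocopy Rps27rt and the 60S gene Rpl26 had no read in any library, where 3 reads correspond to 0.287 to 0.821 CPM. The core genes Rpl30, Rpl34, Rps23 and Rps27 reached at most 1.1, 1.63, 0.548 and 1.63 CPM. Per kilobase of transcript, the highest mean levels over all libraries were those of the stalk genes Rplp1 (1912 CPM per kb) and Rplp0 (986), followed by Rpl8 (798), the retrocopy Rpl37rt (777), the stalk gene Rplp2 (741), Rpsa (563), Rpl13a (558) and Rpl22 (534). These are levels of countable reads, and a gene whose reads fit several places may be understated.

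The first comparison asked how the Tnnt2low and Tnnt2high populations of Glut1 transgenic hearts differ. Of the 79 members tested, 46 were lower and 0 higher in Tnnt2low at an adjusted p under 0.05 in edgeR's quasi-likelihood test. Of the 12252 genes tested, 8.33% were called lower (1020 genes) and 8.42% higher (1032 genes). Without adjustment, 52 members were lower and 0 higher at p under 0.05, against 15.3% and 15.7% of all genes. DESeq2 called 45 members lower and 0 higher, against 11.5% and 11.1% of the 11133 genes for which it gave an adjusted p. The libraries of the groups did not overlap for 41 members, all lower in Tnnt2low, and for 0 members in the other direction, against 10.9% and 11.2% of all genes tested. Both criteria were met by 37 members. The members' median log2 fold change was −0.94, and that of all genes tested was −0.01. The log2 fold change was negative for 70 of the 79 members. Members of both subunits were called, with 20 of 40 tested 60S members (median −0.94), 20 of 29 tested 40S members (median −1.02), 3 of 3 stalk members (median −0.90), 2 of 6 tested paralogs (median −0.77) and the 1 tested retrocopy called lower.

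**Figure D2:**
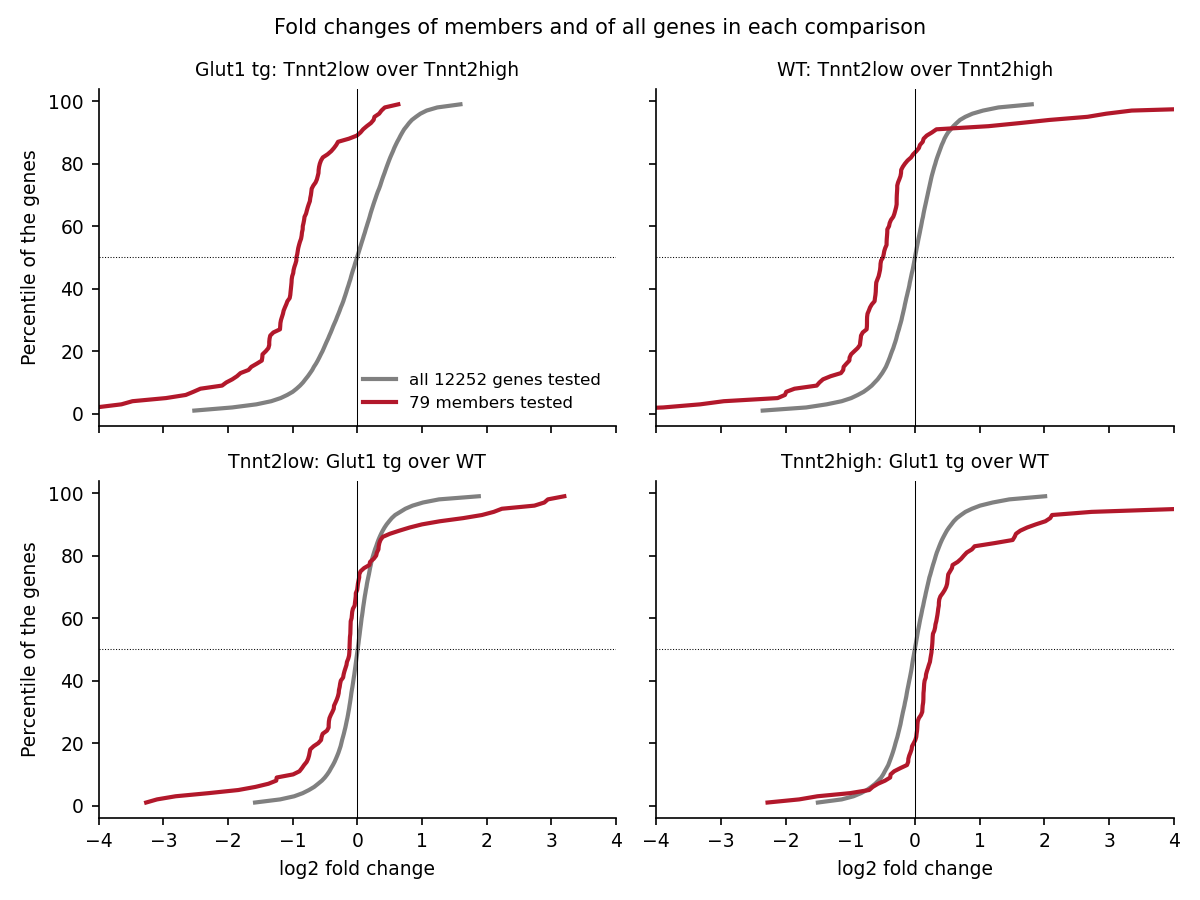
Percentiles of the log2 fold change for the 79 ribosomal protein genes tested (red) and for all 12252 genes tested (grey), with 1 panel for each of the 4 comparisons between groups. The members' curve lies left of the grey curve in Glut1 cells (median −0.94) and, by less, in WT cells (median −0.50), whereas between genotypes it spreads wider than the grey curve on both sides in Tnnt2low (median −0.12, 5th and 95th percentiles −1.84 and 2.23 against −0.75 and 0.74) and lies to its right in Tnnt2high (median 0.26, 95th percentile 4.16 against 0.88).

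Rpl35, a 60S protein at the exit of the peptide tunnel, had the smallest p-value of the members in this comparison. Its level was 77.2, 118, 127 and 94.1 CPM in Glut1 Tnnt2low and 428, 485, 486 and 279 CPM in Glut1 Tnnt2high, so that the highest Tnnt2low library was below the lowest Tnnt2high library (log2 fold change −2.01, SE 0.21, edgeR adjusted p = 0.000446). Rpl24, which lies on the 60S face towards the small subunit, stood at 142, 146, 155 and 142 CPM in Glut1 Tnnt2low and 309, 357, 246 and 281 CPM in Glut1 Tnnt2high (log2 fold change −1.03, SE 0.14, edgeR adjusted p = 0.0013). Both genes were lower in every Tnnt2low library than in any Tnnt2high library.

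The stalk of the 60S subunit, made of Rplp0, Rplp1 and Rplp2, binds the elongation factors. Rplp1 stood at 582, 524, 602 and 666 CPM in Glut1 Tnnt2low and 1188, 1439, 1455 and 1184 CPM in Glut1 Tnnt2high (log2 fold change −1.15, SE 0.13, edgeR adjusted p = 0.000723). Rplp0, the member of highest mean CPM, stood at 925, 986, 925 and 1071 CPM in Glut1 Tnnt2low and 1727, 2053, 1438 and 1686 CPM in Glut1 Tnnt2high (log2 fold change −0.82, SE 0.12, edgeR adjusted p = 0.00198). Both genes separated the populations completely. Rplp2 stood at 223, 176, 219 and 303 CPM in Glut1 Tnnt2low and 495, 657, 367 and 205 CPM in Glut1 Tnnt2high (log2 fold change −0.90, SE 0.27, edgeR adjusted p = 0.0318), and here the groups overlapped.

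Among the other abundant members, Rpl8 contributes to the peptidyl transferase centre and had few reads that could fit elsewhere, since 8.73% of the 50-base windows of its coding sequence occur in another annotated gene. Its level was 436, 526, 499 and 524 CPM in Glut1 Tnnt2low and 974, 874, 923 and 793 CPM in Glut1 Tnnt2high (log2 fold change −0.84, SE 0.14, edgeR adjusted p = 0.0028). Rpl4, whose long extension lines the peptide tunnel, stood at 487, 565, 537 and 509 CPM in Glut1 Tnnt2low and 880.0, 818, 662 and 676 CPM in Glut1 Tnnt2high, a smaller difference that still left the groups apart (log2 fold change −0.53, SE 0.12, edgeR adjusted p = 0.00986). Rps3, at the mRNA entry channel, stood at 268, 317, 354 and 343 CPM in Glut1 Tnnt2low and 576, 596, 546 and 450.4 CPM in Glut1 Tnnt2high (log2 fold change −0.76, SE 0.17, edgeR adjusted p = 0.00805). Each of these genes was lower in every Tnnt2low library than in every Tnnt2high library.

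Further 40S members were among those called. Rps19 stood at 43.2, 44.4, 44 and 56.7 CPM in Glut1 Tnnt2low and 108, 87.6, 120.3 and 67.1 CPM in Glut1 Tnnt2high (log2 fold change −1.02, SE 0.22, edgeR adjusted p = 0.00758). Rps24 stood at 173, 206, 228 and 259.8 CPM in Glut1 Tnnt2low and 480.5, 427, 433 and 356 CPM in Glut1 Tnnt2high (log2 fold change −0.97, SE 0.16, edgeR adjusted p = 0.00234). Rps26 stood at 64.6, 64.4, 57.5 and 45.5 CPM in Glut1 Tnnt2low and 136, 147, 67.9 and 95.6 CPM in Glut1 Tnnt2high (log2 fold change −0.94, SE 0.22, edgeR adjusted p = 0.0112). All 3 were higher in each Tnnt2high library than in each Tnnt2low library. Rpl11, which joins Rpl5 and the 5S RNA in 1 particle, had at most 4.28 CPM in any library and did not pass the test (log2 fold change −1.19, SE 0.97, edgeR adjusted p = 0.438). Of the steady members 35 of 46 were called lower (median −0.87). The 11 not called were Rpl11, Rpl15, Rpl21, Rpl22l1, Rpl27, Rpl37, Rpl39, Rpl41, Rpl7l1, Rps15 and Rps25. Of these, Rpl21 (0.25) and Rpl27 (0.26), both under 10 CPM in each library, had positive log2 fold changes.

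**Figure D3:**
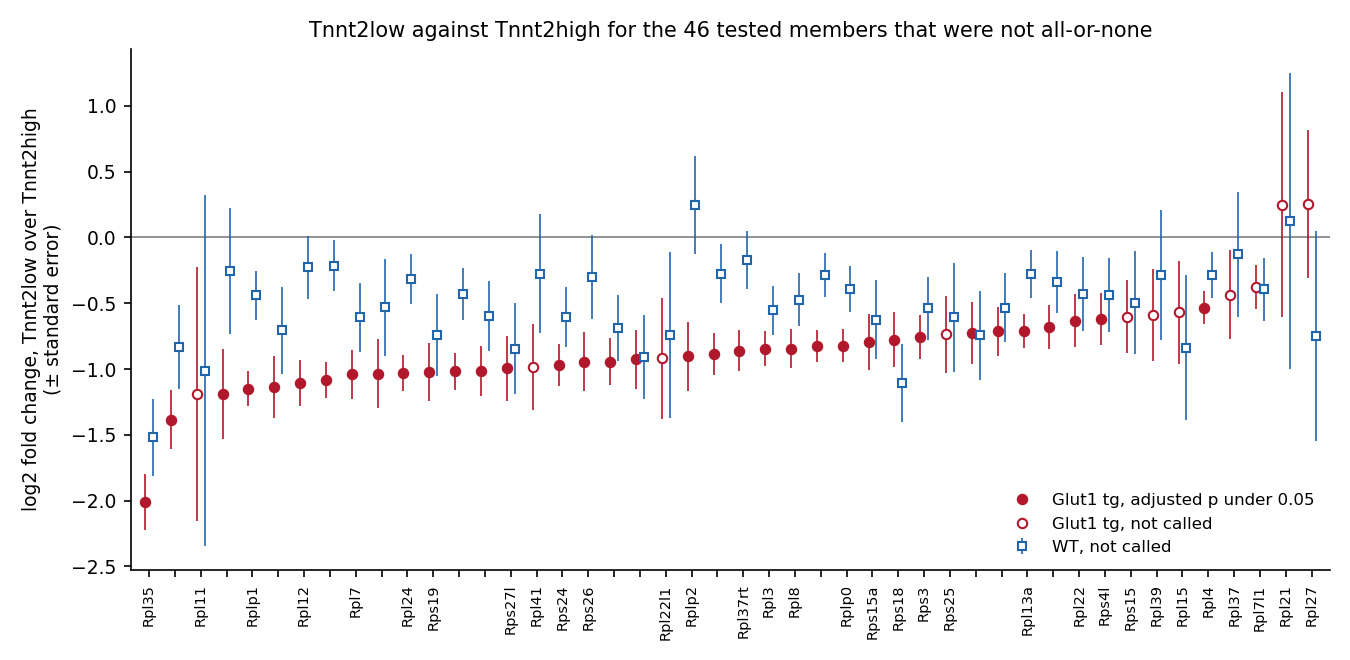
Log2 fold change of Tnnt2low over Tnnt2high (± standard error) for each of the 46 steady ribosomal protein genes, ordered by the Glut1 value, with circles for Glut1 (filled where called), squares for WT and labels for genes named in the text. The Glut1 values run from −2.01 (Rpl35) to 0.26 (Rpl27), with 35 filled circles.

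The lower levels were not limited to members with shared sequence. Of the 16 members with under 50% of their coding windows found in another annotated gene, 14 were tested, 11 were called lower and all 14 had negative log2 fold changes (median −0.80). The difference was smaller once length and GC content were taken into account. The tested members are short, with a median exon length of 1770 bases against 4583 for all genes tested, and a median GC content of 50.9% against 49.7%. With a per-library offset for length and GC content, 20 members were called lower, where 2.98% of all genes were, and the median log2 fold change was −0.56. The log2 fold changes were then −1.48 for Rpl35, −1.49 for Rpsa, −0.81 for Rpl7, −0.73 for Rpl3, −0.41 for Rpl24 and −0.40 for Rplp0, which were still called. They were −0.35 for Rplp1, −0.36 for Rpl8, −0.21 for Rpl4, −0.29 for Rps27l, −0.46 for Rpl22 and near 0 for Rps4l, which were no longer called. Rpl5 also missed the threshold there with a value of similar size (−1.08, edgeR adjusted p = 0.0898), and it was called with the replicate block and the offset together (−1.13, edgeR adjusted p = 0.0301), as was Rplp1 (−0.36, edgeR adjusted p = 0.0391). The number called ranged from 32 (without replicate 1 of Glut1 Tnnt2low) to 46 when each of the 12 libraries was left out in turn, and 29 members were called every time.

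Other values moved with the populations. Reads outside exons per gene read and the number of gene reads, given above, differed between the same groups without overlap. Of the 7 fibroblast and matrix markers 5 were called lower in Glut1 Tnnt2low, where 8.33% of all genes were. The summed level of the 7 was 46.2 to 98.4 CPM there and 149 to 894 CPM in Glut1 Tnnt2high. Of the 6 endothelial markers, 0 were called at the adjusted threshold. At an unadjusted p under 0.05, 5 were lower, against 15.3% of all genes. They summed to 7.08 to 64.1 CPM in Glut1 Tnnt2low and 26.0 to 208 CPM in Glut1 Tnnt2high. No marker of these lists was at 0 in a whole group. The 5 smooth muscle and pericyte markers summed to 625 to 688 CPM in Glut1 Tnnt2low and 445 to 539 CPM in Glut1 Tnnt2high. Among them, 1 was called lower and 2 higher in Tnnt2low, against 8.33% and 8.42% of all genes. Of the 5 log2 fold changes, 3 were negative (median −1.99, range −2.49 to 0.49). Leukocyte markers summed to at most 7.67 CPM and erythroid markers to at most 18.6 CPM in any library, with some markers of each list at 0. The part of read depth, reads outside exons and these cell types in the members' difference was not tested.

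In WT hearts the same comparison gave 0 members called in either direction by edgeR's quasi-likelihood test, as for 0% of all genes tested. Without adjustment, 22 members were lower and 4 higher in Tnnt2low at p under 0.05, against 1.91% and 1.2% of all genes. DESeq2 called 1 member lower, Rpl35, where 2 of all 16895 genes were called lower and 1 higher. With the replicate number as a block, edgeR also called Rpl35 lower (edgeR adjusted p = 0.0461), where 1 of all 12252 genes was called lower and 1 higher. The libraries did not overlap for 30 members that were lower and 3 that were higher, where 14.9% and 15.3% of all genes had groups of 2 that did not overlap. The members' median log2 fold change was −0.50, with 66 of 79 negative, and moved between −0.94 without replicate 2 of WT Tnnt2low and −0.26 without replicate 1 of either population. The fibroblast markers summed to 107 to 152 CPM in WT Tnnt2low and 103 to 462 CPM in WT Tnnt2high, and the endothelial markers to 10.6 to 73.6 and 13.7 to 296 CPM. Their part in the members' values was not tested.

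Rpl35 again had the smallest p-value, at 127 and 99.8 CPM in WT Tnnt2low and 393 and 256 CPM in WT Tnnt2high (log2 fold change −1.52, SE 0.29, edgeR adjusted p = 0.68), lower in both Tnnt2low libraries. Rps18, a 40S protein, stood at 105 and 168 CPM in WT Tnnt2low and 364 and 224 CPM in WT Tnnt2high (log2 fold change −1.11, SE 0.30, edgeR adjusted p = 1.00), also without overlap. Rpl29, a 60S protein that counts among the all-or-none members, stood at 13.3 and 5.98 CPM in WT Tnnt2low and 47.5 and 30.8 CPM in WT Tnnt2high (log2 fold change −2.02, SE 0.66, edgeR adjusted p = 1.00). Rps6, the 40S protein phosphorylated by S6 kinase, went the other way, at 101 and 11.5 CPM in WT Tnnt2low and 5.91 and 3.9 CPM in WT Tnnt2high (log2 fold change 3.53, SE 0.89, edgeR adjusted p = 1.00), with a log2 fold change of 1.24 without replicate 1 of WT Tnnt2low. Rpl36a had no read in either WT Tnnt2high library and 58.5 and 37.4 CPM in WT Tnnt2low, at least 94.5-fold higher than a floor of 3 reads per library (0.508 CPM on average).

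The all-or-none members varied widely within the groups. Their sum still separated the Glut1 populations, at 1860 to 2508 CPM in Tnnt2low and 4713 to 6850 CPM in Tnnt2high, and 26 of the 33 log2 fold changes were negative (median −1.36). Of the 33, 31 are given below with their level in every library. A 50-base window of coding sequence was called shared where it also occurs in another annotated gene of mm10, pseudogenes included, since a read of 50 bases from it fits more than 1 place. Rps29, a small zinc-binding protein of the 40S subunit, had 0.574, 23.1, 0.127 and 0 CPM in Glut1 Tnnt2low, 159, 123, 0.496 and 0.475 in Glut1 Tnnt2high, 33.4 and 0.15 in WT Tnnt2low and 1.43 and 32.6 in WT Tnnt2high, with all coding windows shared. Rpl23a, a 60S protein at the tunnel exit, had 70.8, 5.72, 3.81 and 2.3 CPM in Glut1 Tnnt2low, 305, 2.19, 0.496 and 315 in Glut1 Tnnt2high, 1.64 and 0.897 in WT Tnnt2low and 477 and 12.4 in WT Tnnt2high. Libraries of 1 group thus differed by more than 100 times in Rps29 and Rpl23a. The highest library was at least 100 times the lowest for 12 of the 33 members, among them Rps29, Rpl23a, Rpl28, Rpl36a, Rpl10, Rps13, Rpl9, Rpl19, Rps27a, Rps7 and Rps12. The highest library was a Glut1 Tnnt2high library for 22 of the 33, WT Tnnt2high for 6, WT Tnnt2low for 3 and Glut1 Tnnt2low for 2.

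The sequence shows how close the copies are. The stretches below are 50 bases from the middle of the coding sequence, a full read length, in capitals where they differ from the closest annotated pseudogene copy, so a stretch with no capitals is present in a pseudogene base for base. The genes lie in mm10 at chr12:69157722-69159186 (minus strand) for Rps29, chr11:78180932-78183584 (minus strand) for Rpl23a, chr7:4792874-4795066 (plus strand) for Rpl28, chr15:76904078-76906314 (plus strand) for Rpl8 and chr7:99477896-99483738 (minus strand) for Rps3.
Rps29: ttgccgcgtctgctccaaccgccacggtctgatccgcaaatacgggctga
Rpl23a: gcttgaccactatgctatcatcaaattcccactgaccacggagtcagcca
Rpl28: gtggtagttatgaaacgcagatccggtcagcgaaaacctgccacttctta
Rpl8: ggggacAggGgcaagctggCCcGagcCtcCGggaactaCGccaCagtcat
Rps3: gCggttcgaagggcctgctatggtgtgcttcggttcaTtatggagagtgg
The stretch of Rps29 occurs also in Gm14303, that of Rpl23a in 2 pseudogenes and that of Rpl28 in 3. The steady genes Rpl8 and Rps3 differed from their closest pseudogene at 11 and 2 of these bases. These genes were picked by hand and do not stand for the steady members as a set. Rpl8 and Rps3 had 8.73% and 8.09% of coding windows shared, where the median steady member had 82.4%. Of the 44 tested steady members with a coding sequence, 10 had all coding windows shared.

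Across the class, the members with the largest range between libraries were those with the most shared sequence. Coding windows were fully shared for 17 of the 33 all-or-none members and for 10 of the 44 tested steady members with a coding sequence, with medians of 100% and 82.4%. Over these 77 members, the ratio of highest to lowest library and the shared percentage had a Spearman correlation of 0.56, given as a description over genes, which share libraries. Of the 19 tested members under 75% shared, 1 was all-or-none, the muscle paralog Rpl3l, which never exceeded 12.9 CPM, and the other members had a ratio of at most 4.61. Sharing was tested only against annotated transcripts and pseudogenes, and whether the reads set aside with several alignments (28.2% to 40.9% of the records per library) came from these genes was not tested.

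**Figure D4:**
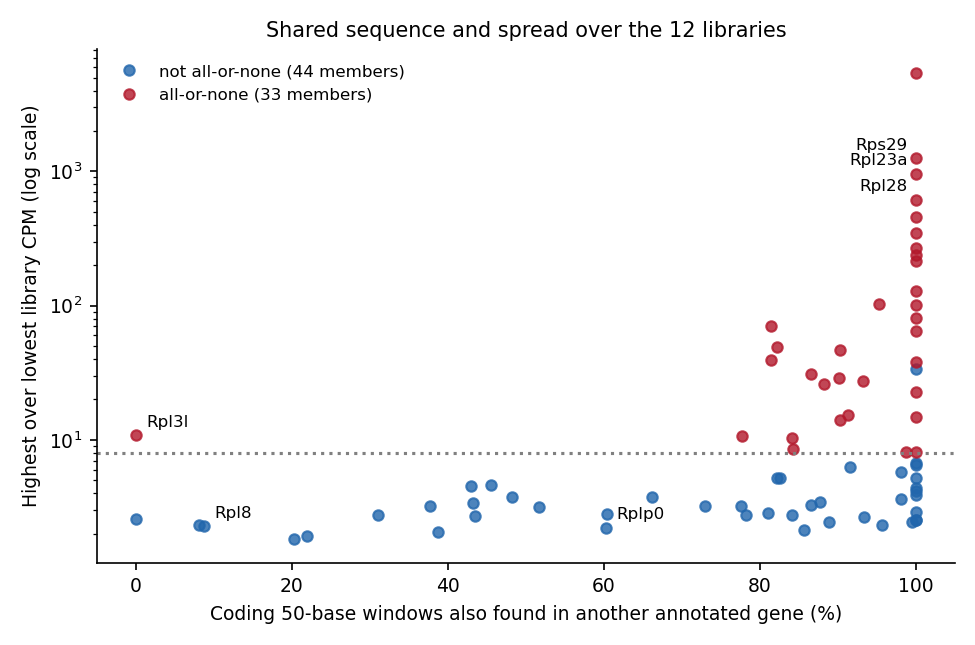
Ratio of the highest to the lowest library (log axis, a library at 0 set to 3 reads, dotted line at 8) against the percentage of 50-base coding windows found in another annotated gene, with 1 point per tested ribosomal protein gene. Under 75% shared, the ratio is at most 4.61 except for Rpl3l, and the all-or-none members other than Rpl3l and Rpl14 lie above 80%.

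Among the remaining 60S members, Rpl10, which joins the 60S subunit late in assembly, had 1.05, 1.12, 2.67 and 0.384 CPM in Glut1 Tnnt2low, 6.26, 1.37, 103 and 8.07 in Glut1 Tnnt2high, 0.298 and 0 in WT Tnnt2low and 2.85 and 0.942 in WT Tnnt2high. Rpl28 had 85.9, 56.6, 0 and 0 CPM in Glut1 Tnnt2low, 234, 121, 0 and 173 in Glut1 Tnnt2high, 87.6 and 2.69 in WT Tnnt2low and 0 and 0.673 in WT Tnnt2high. Both were above 100 CPM in at least 1 Glut1 Tnnt2high library and near 0 in at least 1 other. Rpl19, which reaches across to the small subunit, had 0.765, 1.46, 2.67 and 0 CPM in Glut1 Tnnt2low, 3.23, 4.11, 2.23 and 2.85 in Glut1 Tnnt2high, 20.3 and 1.94 in WT Tnnt2low and 3.67 and 82.9 in WT Tnnt2high. Rpl36a had 35.5, 0.224, 0.508 and 0.128 CPM in Glut1 Tnnt2low, 0.202, 16.4, 0.248 and 0 in Glut1 Tnnt2high, 58.5 and 37.4 in WT Tnnt2low and 0 and 0 in WT Tnnt2high. Rpl19 was high in 1 library of each WT population, and Rpl36a in both WT Tnnt2low libraries and 1 library of each Glut1 population. Rpl17, at the tunnel exit, had 7.84, 4.94, 95.9 and 3.07 CPM in Glut1 Tnnt2low, 67.2, 39.2, 155 and 47 in Glut1 Tnnt2high, 2.38 and 46.1 in WT Tnnt2low and 126 and 2.69 in WT Tnnt2high. Rpl23 had 10.6, 16.5, 33 and 124 CPM in Glut1 Tnnt2low, 34.9, 114, 24.5 and 16.8 in Glut1 Tnnt2high, 152 and 16.5 in WT Tnnt2low and 326 and 15.9 in WT Tnnt2high. Rpl9 had 11, 77.4, 83.2 and 0.64 CPM in Glut1 Tnnt2low, 153, 114, 129.9 and 77.6 in Glut1 Tnnt2high, 46.5 and 101 in WT Tnnt2low and 132 and 87.1 in WT Tnnt2high. For these 3 genes, high and low libraries stood side by side within Glut1 Tnnt2low alone.

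Rpl13 had 144, 188, 46.2 and 196 CPM in Glut1 Tnnt2low, 389.9, 395, 26.5 and 234 in Glut1 Tnnt2high, 104 and 247 in WT Tnnt2low and 372 and 37.7 in WT Tnnt2high. Rpl18 had 73.1, 28.8, 87.7 and 6.78 CPM in Glut1 Tnnt2low, 197, 193, 16.1 and 99.9 in Glut1 Tnnt2high, 4.77 and 24.5 in WT Tnnt2low and 221 and 28.9 in WT Tnnt2high. Rpl27a had 118, 132, 195 and 24 CPM in Glut1 Tnnt2low, 327, 22.2, 14.4 and 53.9 in Glut1 Tnnt2high, 29.8 and 157 in WT Tnnt2low and 22.2 and 125 in WT Tnnt2high. In each of these genes a Glut1 Tnnt2high library lay among the lowest values and another was the highest or close to it. Rpl35a, mutated in some human Diamond-Blackfan anaemia, had 5.26, 3.82, 14.5 and 0.512 CPM in Glut1 Tnnt2low, 21.2, 6.85, 25.3 and 8.07 in Glut1 Tnnt2high, 1.34 and 8.23 in WT Tnnt2low and 3.67 and 5.92 in WT Tnnt2high. Rpl38, needed in the mouse for normal axial patterning, had 12.7, 9.54, 1.4 and 15.5 CPM in Glut1 Tnnt2low, 17, 11.5, 0.496 and 1.66 in Glut1 Tnnt2high, 0.447 and 2.09 in WT Tnnt2low and 8.96 and 1.62 in WT Tnnt2high. Rpl29 had 23.2, 34.8, 32 and 83.6 CPM in Glut1 Tnnt2low, 58.3, 20.5, 21.1 and 68.3 in Glut1 Tnnt2high, 13.3 and 5.98 in WT Tnnt2low and 47.5 and 30.8 in WT Tnnt2high. The Glut1 populations overlapped for all 3.

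Rpl14 had 37, 37, 23.2 and 35.7 CPM in Glut1 Tnnt2low, 77.3, 248, 49.6 and 49.8 in Glut1 Tnnt2high, 36.2 and 46.1 in WT Tnnt2low and 73.7 and 41.5 in WT Tnnt2high. Rpl37a had 2.1, 4.6, 4.57 and 6.14 CPM in Glut1 Tnnt2low, 73.9, 6.3, 13.6 and 6.41 in Glut1 Tnnt2high, 1.04 and 4.19 in WT Tnnt2low and 7.33 and 4.44 in WT Tnnt2high. Rpl6 had 261, 296, 195 and 23.4 CPM in Glut1 Tnnt2low, 642, 549, 495 and 480.2 in Glut1 Tnnt2high, 258 and 386 in WT Tnnt2low and 582 and 408 in WT Tnnt2high. These 3 genes were lower in each Glut1 Tnnt2low library than in each Glut1 Tnnt2high library and were called lower, with edgeR adjusted p of 0.0164, 0.0247 and 0.0427. Rpl5, which joins the 5S RNA and binds Mdm2 when ribosome assembly is disturbed, had 440.4, 226, 472 and 558 CPM in Glut1 Tnnt2low, 1086, 1205, 973 and 627 in Glut1 Tnnt2high, 547 and 148 in WT Tnnt2low and 943 and 551 in WT Tnnt2high. Rpl5 was called lower in Glut1 Tnnt2low (log2 fold change −1.20, SE 0.35, edgeR adjusted p = 0.0304), but the call was lost without any 1 of replicates 1, 2 and 3 of either Glut1 population.

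Of the 40S members, Rpsa, known also as the laminin receptor precursor, had 761, 493, 211 and 630.2 CPM in Glut1 Tnnt2low, 1640.2, 1664, 1709 and 1459.7 in Glut1 Tnnt2high, 214 and 922 in WT Tnnt2low and 593 and 501 in WT Tnnt2high. Its ratio of 8.10 was the smallest among the all-or-none members, and it was called lower in Glut1 Tnnt2low (log2 fold change −1.63, SE 0.38, edgeR adjusted p = 0.00995). Rps2 had 54.7, 35, 108 and 70.5 CPM in Glut1 Tnnt2low, 78.7, 251, 358 and 266 in Glut1 Tnnt2high, 58.7 and 92.1 in WT Tnnt2low and 194 and 105 in WT Tnnt2high. Rps10, which is ubiquitinated at collided ribosomes in human cells, had 65.4, 68.1, 64.8 and 102 CPM in Glut1 Tnnt2low, 223, 160.5, 182 and 110.1 in Glut1 Tnnt2high, 31.6 and 90.9 in WT Tnnt2low and 26.1 and 89.7 in WT Tnnt2high. Both were called lower, with edgeR adjusted p of 0.0076 and 0.0367. Rps3a1 had 15.4, 26.5, 21.4 and 22.4 CPM in Glut1 Tnnt2low, 378, 43, 36.2 and 36.1 in Glut1 Tnnt2high, 14.6 and 337 in WT Tnnt2low and 30.8 and 26.1 in WT Tnnt2high. Replicate 1 of Glut1 Tnnt2high and replicate 2 of WT Tnnt2low stood far above the other 10 libraries. Rps12 had 0.478, 0.449, 0.254 and 0.128 CPM in Glut1 Tnnt2low, 1.82, 1.37, 12.9 and 2.14 in Glut1 Tnnt2high, 0 and 1.65 in WT Tnnt2low and 0.204 and 0 in WT Tnnt2high.

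Rps6 had 2.68, 3.37, 4.95 and 7.8 CPM in Glut1 Tnnt2low, 4.64, 10.4, 1.24 and 7.36 in Glut1 Tnnt2high, 101 and 11.5 in WT Tnnt2low and 5.91 and 3.9 in WT Tnnt2high. Rps7 had 70.6, 1.57, 1.9 and 3.58 CPM in Glut1 Tnnt2low, 160.4, 20.5, 84.3 and 70.7 in Glut1 Tnnt2high, 24.9 and 111 in WT Tnnt2low and 73.7 and 110.1 in WT Tnnt2high. Rps6 was high in a single WT Tnnt2low library, while Rps7 was spread over the groups. Rps13 had 1.24, 26.3, 0.127 and 0 CPM in Glut1 Tnnt2low, 1.21, 0.821, 0 and 24 in Glut1 Tnnt2high, 1.49 and 0.449 in WT Tnnt2low and 9.57 and 33.9 in WT Tnnt2high. Rps27a, made as a fusion with ubiquitin, had 127, 119, 91.6 and 65.2 CPM in Glut1 Tnnt2low, 240.1, 111, 2.23 and 257 in Glut1 Tnnt2high, 116 and 176 in WT Tnnt2low and 287 and 199 in WT Tnnt2high. Rps4x, encoded on the X chromosome, had 5.64, 163, 8.63 and 13.4 CPM in Glut1 Tnnt2low, 17.6, 19.7, 8.68 and 99.9 in Glut1 Tnnt2high, 11.2 and 11.4 in WT Tnnt2low and 8.35 and 12 in WT Tnnt2high. For Rps27a a single Glut1 Tnnt2high library fell to 2.23 CPM while all others held at least 65.2 CPM. In the Glut1 comparison 11 of the 33 all-or-none members were called lower, among them Rpl10, Rpl14, Rpl37a, Rpl5, Rpl6, Rps10, Rps12, Rps2, Rps3a1 and Rpsa, and 4 of the 11, Rpl14, Rps2 and Rpsa among them, in every fit that left out 1 library, against 25 of the 35 steady members called.

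**Figure D5:**
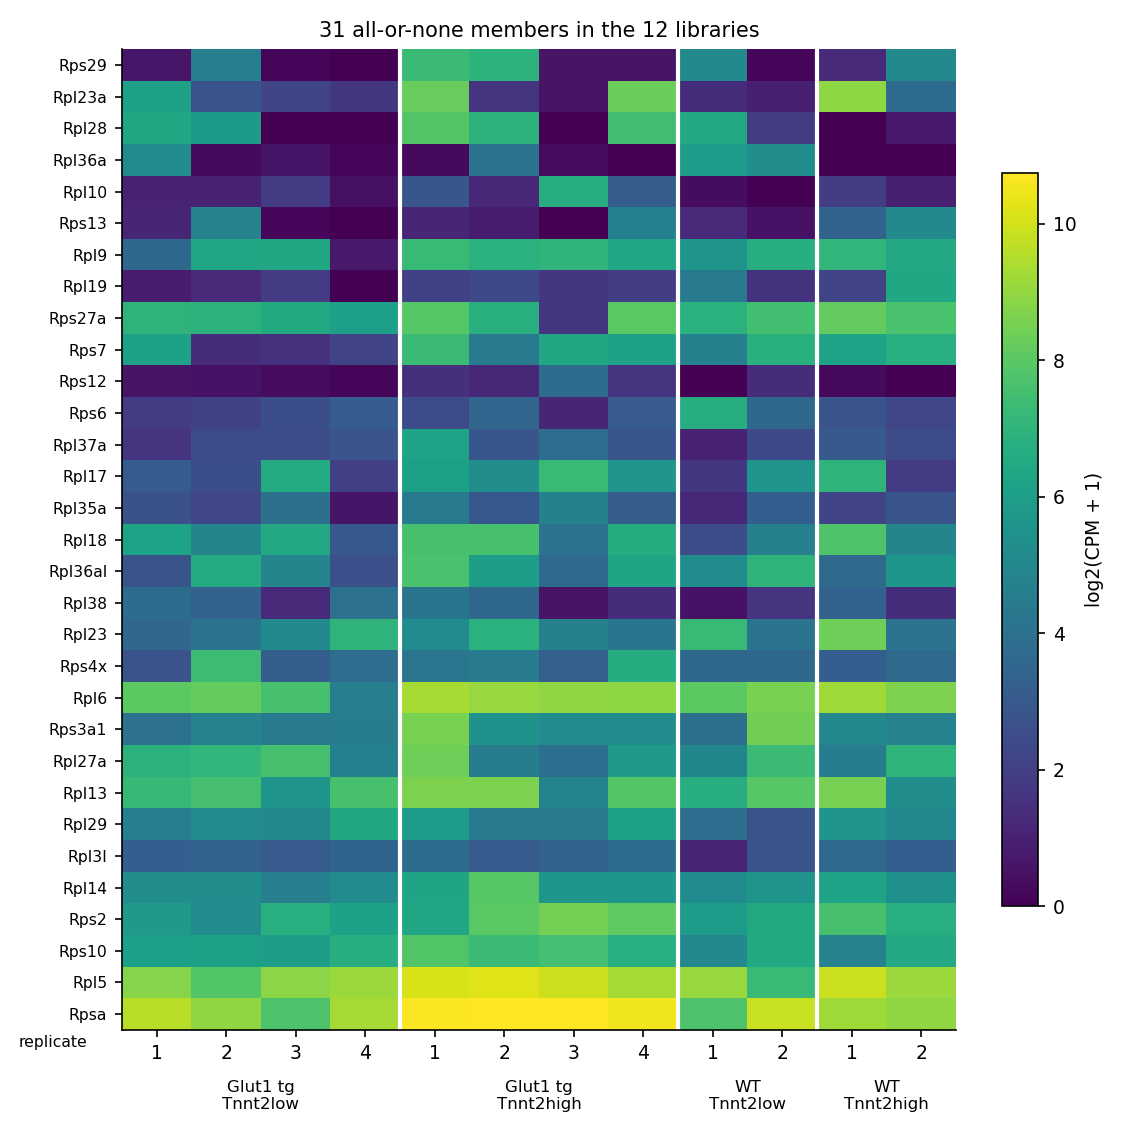
Heat map of the level, as log2(CPM + 1), of 31 all-or-none ribosomal protein genes in the 12 libraries, with columns grouped by population and rows ordered by the ratio of highest to lowest library. Rps29, at the top, ranges from 0 to 159 CPM, and Rpsa, with the smallest ratio, from 211 to 1709 CPM.

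Pseudogenes that have a name with -ps were outside the class, and their counts are given here beside their parents. Whether reads counted there came from the parent genes was not tested. Rpl14-ps1 received 497 to 2037 reads per library, more than its parent Rpl14 in every library but replicate 2 of Glut1 Tnnt2high, and did not pass the test in Glut1 cells (log2 fold change −0.20, edgeR adjusted p = 0.616). Rps15a-ps4 ranged from 0 to 137 reads, Rps15a-ps6 from 0 to 11 and Rps19-ps3 from 0 to 53, and Rpl31-ps12, Rpl34-ps1 and Rplp2-ps1 had 2 reads among them. The parents Rps15a (log2 fold change −0.79, SE 0.21, edgeR adjusted p = 0.0211) and Rps19 were steady across the libraries, and both were called lower in Glut1 Tnnt2low.

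The effect of the transgene within each population was asked next. In Tnnt2low cells, Glut1 transgenic against WT, edgeR's quasi-likelihood test called 0 members in either direction, where 0.00816% of all genes (1 gene) were called, and DESeq2 called 0. Without adjustment 8 members were lower and 3 higher in Glut1 at p under 0.05, against 1.16% and 0.93% of all genes. The median log2 fold change of the members was −0.12 with 54 of 79 negative, and it turned to 0.21 without replicate 2 of WT Tnnt2low and was −0.38 without replicate 1. The smallest p-values were those of Rps6, Rpl12, Rpl29 and Rps3a1. Rps6 had the first of these (log2 fold change −3.59, SE 0.68, edgeR adjusted p = 0.569). Rpl29 was at a positive value (log2 fold change 2.17, SE 0.61, edgeR adjusted p = 1.00), and Rps3a1 at a negative one (log2 fold change −3.04, SE 0.93, edgeR adjusted p = 1.00). Both Rps6 and Rps3a1 were low in all 4 Glut1 Tnnt2low libraries and high in 1 of the 2 WT libraries. Without that library the log2 fold change of Rps6 was −1.30 (without replicate 1) and that of Rps3a1 was 0.55 (without replicate 2). Rpl12, a steady 60S protein at the base of the stalk, stood at 74, 60.4, 56.6 and 72.3 CPM in Glut1 Tnnt2low, 105, 163, 147 and 152 in Glut1 Tnnt2high, 123 and 96.6 in WT Tnnt2low and 153 and 105 in WT Tnnt2high. It was lower in Glut1 Tnnt2low than in WT Tnnt2low without overlap (log2 fold change −0.74, SE 0.20, edgeR adjusted p = 1.00).

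In Tnnt2high cells edgeR's quasi-likelihood test also called 0 members between Glut1 transgenic and WT, where 0% of all genes were called, and DESeq2 called 0. Without adjustment 1 member was lower and 14 were higher in Glut1, against 3.13% and 2.17% of all genes. The median log2 fold change was 0.26 with 62 of 79 positive, and it lay between 0.04 (without replicate 2 of WT Tnnt2high) and 0.54 (without replicate 1). The smallest p-values included those of Rpl19, Rps10 and Rpsa, all of them all-or-none members with the values given above. Rpl19 was at a negative value (log2 fold change −3.81, SE 0.98, edgeR adjusted p = 0.899). Rps10 (log2 fold change 1.54, SE 0.46, edgeR adjusted p = 0.899) and Rpsa (log2 fold change 1.57, SE 0.49, edgeR adjusted p = 0.899) were at positive values. Rpsa was at least 1459.7 CPM in each Glut1 Tnnt2high library and at most 593 CPM in both WT Tnnt2high libraries. Rpl36a, at 0 in WT Tnnt2high, was at least 8.31-fold higher in Glut1 Tnnt2high against the same floor, through 1 library.

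The interaction compared the Tnnt2low to Tnnt2high difference between the genotypes. None of the members passed (0 called by edgeR's quasi-likelihood test, 0% of all genes, and 0 by DESeq2), so a larger difference in Glut1 transgenic than in WT cells was not shown. Without adjustment, the difference was lower in Glut1 for 15 members and higher for 1, against 2.2% and 2.32% of all genes. The median interaction was −0.42 on the log2 scale with 63 of 79 negative, and it moved between −0.73 (without replicate 1 of WT Tnnt2high) and −0.08 (without replicate 2 of WT Tnnt2low). Among the smallest p-values was that of Rps6 (log2 fold change −3.86, SE 1.07, edgeR adjusted p = 0.961). Rps3a1 (log2 fold change −5.16, SE 1.47, edgeR adjusted p = 0.961) and Rplp1 (log2 fold change −0.71, SE 0.23, edgeR adjusted p = 0.961) came next. In WT, Rplp1 stood at 719 and 896 CPM in WT Tnnt2low and 1289 and 903 CPM in WT Tnnt2high, beside the Glut1 values given above. The interaction uses the same libraries as the population comparisons and adds no independent measurement.

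Paralogs were read against their core gene. Rpl3, next to the peptidyl transferase centre, stood at 347, 419, 459.6 and 359 CPM in Glut1 Tnnt2low, 811, 719.6, 699.5 and 618 in Glut1 Tnnt2high, 359 and 453 in WT Tnnt2low and 661 and 530.3 in WT Tnnt2high. It was called lower in Glut1 Tnnt2low (log2 fold change −0.85, SE 0.13, edgeR adjusted p = 0.00198). Rpl3l, its striated muscle paralog, stood at 8.22, 9.32, 7.49 and 9.98 CPM in Glut1 Tnnt2low, 12.9, 7.67, 9.42 and 12.8 in Glut1 Tnnt2high, 1.19 and 5.98 in WT Tnnt2low and 11.6 and 8.35 in WT Tnnt2high. Its difference between the Glut1 populations did not pass the test (log2 fold change −0.29, SE 0.38, edgeR adjusted p = 0.642). Rpl3l counts among the all-or-none members only through replicate 1 of WT Tnnt2low. Per kilobase, the mean level of Rpl3l was 6.36 CPM per kb, against 397 for Rpl3.

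Rpl7 stood at 244, 335, 323 and 326 CPM in Glut1 Tnnt2low and 768, 678, 570.1 and 510.1 CPM in Glut1 Tnnt2high and was called lower (log2 fold change −1.04, SE 0.19, edgeR adjusted p = 0.00337). Rpl7l1, its paralog, stood at 37.3, 45.2, 38.2 and 38.4 CPM in Glut1 Tnnt2low and 53.3, 48.5, 48.4 and 56.5 CPM in Glut1 Tnnt2high and did not pass (log2 fold change −0.38, SE 0.17, edgeR adjusted p = 0.146), although the groups did not overlap. Rpl22 stood at 164, 205, 285 and 167 CPM in Glut1 Tnnt2low and 451, 311, 259.6 and 252 CPM in Glut1 Tnnt2high (log2 fold change −0.63, SE 0.20, edgeR adjusted p = 0.0426). Rpl22l1, its paralog, stood at 2.87, 3.59, 1.9 and 2.69 CPM in Glut1 Tnnt2low and 4.44, 9.86, 4.71 and 2.14 CPM in Glut1 Tnnt2high (log2 fold change −0.92, SE 0.46, edgeR adjusted p = 0.189). The call of Rpl22 was lost without any 1 of replicates 1, 2 and 4 of Glut1 Tnnt2low, replicates 1 and 2 of Glut1 Tnnt2high and both WT Tnnt2low replicates, with adjusted p of 0.0518 to 0.148 in edgeR's quasi-likelihood test. Rps27l, a p53 target in human cells, stood at 14, 15.4, 15.4 and 12.9 CPM in Glut1 Tnnt2low and 36.3, 26.8, 26 and 25.4 CPM in Glut1 Tnnt2high (log2 fold change −0.99, SE 0.25, edgeR adjusted p = 0.0144), while its core gene Rps27 was not tested. Its call was lost without replicate 1 of Glut1 Tnnt2high (edgeR adjusted p = 0.0541).

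Rps4l, a paralog of Rps4x, stood at 42.3, 58.3, 57.1 and 43.1 CPM in Glut1 Tnnt2low and 85.2, 89.3, 55 and 78.5 CPM in Glut1 Tnnt2high and was just past the threshold (log2 fold change −0.62, SE 0.20, edgeR adjusted p = 0.0451), with an edgeR adjusted p = 0.0549 once the replicate number entered as a block. The call was also lost without any 1 Glut1 library other than replicate 3 of Tnnt2high, with edgeR adjusted p of 0.0552 to 0.127. Rpl36al, the autosomal paralog of the X-linked Rpl36a, had 5.83, 96.4, 28.9 and 5.12 CPM in Glut1 Tnnt2low, 199.8, 61.6, 12.2 and 75.9 in Glut1 Tnnt2high, 36.2 and 127 in WT Tnnt2low and 12 and 49.3 in WT Tnnt2high. It varied within every group and did not pass (log2 fold change −1.36, SE 0.86, edgeR adjusted p = 0.305). Rpl39, whose testis paralog Rpl39l had no read, stood at 3.92, 7.41, 5.71 and 7.03 CPM in Glut1 Tnnt2low and 12.3, 8.49, 7.44 and 7.83 CPM in Glut1 Tnnt2high (log2 fold change −0.59, SE 0.35, edgeR adjusted p = 0.279), and Rpl10l, the testis paralog of Rpl10, had no read either. The retrocopy Rpl37rt stood at 172, 130.3, 143 and 180.3 CPM in Glut1 Tnnt2low and 225, 350.5, 265 and 296 CPM in Glut1 Tnnt2high and was called lower (log2 fold change −0.86, SE 0.16, edgeR adjusted p = 0.0034). Rpl37 itself stood at 43.2, 38.1, 33.1 and 28.4 CPM in Glut1 Tnnt2low and 64.2, 64.9, 12.4 and 51.7 CPM in Glut1 Tnnt2high and did not pass (log2 fold change −0.44, SE 0.34, edgeR adjusted p = 0.417). Reads of near-identical copies cannot be assigned with certainty, so these values are uncertain.

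Genes outside the naming rule that act in the ribosome, in translation, in ribosome assembly or in their control were counted from fixed lists. Fau encodes a ribosomal protein fused to a ubiquitin-like protein. Fau stood at 122, 121, 127 and 116 CPM in Glut1 Tnnt2low and 268, 274, 301 and 206 CPM in Glut1 Tnnt2high (log2 fold change −1.11, SE 0.15, edgeR adjusted p = 0.00141). It was called lower in Glut1 Tnnt2low and separated the populations without overlap. A list of 21 held other 5′TOP mRNAs of translation and the noncoding RNAs Gas5 and Snhg1. Of the 21, 12 were called lower and 1 higher, with a median log2 fold change of −0.52. Btf3 (−1.33), Eef1d (−0.85) and Tpt1 (−0.77) were among those that fell, and Naca, the partner of Btf3 in the nascent chain-associated complex, was the 1 called higher (0.50), with 4 of the 21 log2 fold changes positive. Of 47 genes of ribosome assembly and RNA polymerase I, 4 were called lower (Nhp2, Nop10, Eif6 and Utp3) and 1 higher (Utp15), with a median of −0.15. A list of 13 held regulators of 5′TOP translation and the transcription factor genes Myc, Mycn and Max. Of the 13, 2 were called lower (Eif4ebp1 and Rheb) and 4 higher, namely Mtor (0.59), Larp1 (1.02), Eif4ebp2 (0.80) and Tsc2 (0.45). The shares called in the assembly list were near those of all genes (8.33% and 8.42%) or below them. In the WT, genotype and interaction comparisons, edgeR's quasi-likelihood test called 0 of the 83 genes of these 4 lists. Without adjustment, 5 were lower and 0 higher in WT Tnnt2low, where 1.91% and 1.2% of all genes were. In Glut1 Tnnt2low against WT, 0 were lower and 1 higher (all genes 1.16% and 0.93%). In Glut1 Tnnt2high against WT, 2 were lower and 7 higher (all genes 3.13% and 2.17%). In the interaction, 7 were lower and 3 higher (all genes 2.2% and 2.32%). DESeq2 called Btf3 higher in Glut1 Tnnt2high than in WT Tnnt2high and no other gene of the lists in these comparisons. Of all 16895 genes, it called 1 lower and 4 higher between these Tnnt2high groups.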

How the data were processed

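RNA-seq counts were analysed from 12 libraries. Single-end 50-base reads were trimmed by the authors after FastQC, mapped to mm10 with HISAT2 and counted over genes with HTSeq, and the deposited files hold these raw counts, not normalized. For versions and strand mode: not given in the sources used here. Besides 24421 genes, 5 totals per file were left out. Reads with several alignments made up 28.2% to 40.9% of the records and were not counted to genes, so members with close copies may be understated.

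Counts were fitted with edgeR 4.0.16 under R 4.3.3 (scaling by TMM, filterByExpr, quasi-likelihood test, Benjamini-Hochberg adjustment over the 12252 genes tested, threshold 0.05), with all 12 libraries and the 4 groups in 1 fit. The biological coefficient of variation was 0.314. CPM values were scaled with the TMM factors, and levels per kb used the length of 1 annotated transcript per gene. DESeq2 1.42.0, other scalings, no filter, an offset for length and GC content (a loess curve per library, span 0.3), a replicate block, only the groups compared and leaving out each library were the alternatives. On simulated data for the Glut1 comparison (12044 genes), the test recovered 46% of 100 genes changed 2-fold and 82% of 100 genes changed 4-fold, and called 12 unchanged genes.

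Replicate numbers pair the libraries: both populations of a Glut1 replicate come from 1 heart by the labels, and deviations from the group means correlated at 0.107 to 0.226 within Glut1 pairs and 0.271 within WT pairs. Replicates differed by more than counting noise (mean chi-square of 13.4 to 26.5 per gene with at least 20 reads in the pair, where counting noise alone gives about 1).

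Shared sequence was counted as exact 50-base windows against GENCODE vM21 transcripts, including 13523 pseudogenes, not against the genome. Start sites came from RefSeq (GRCm38.p6), in which 66 members matched. Figures were drawn in Python 3.11.15 with matplotlib 3.10.9. Members were chosen by symbol, and the members and lists were chosen with earlier results of these data known. Named were the 4 called members with the smallest p per comparison and direction (the 4 smallest p where none was called), the 6 of highest mean CPM, every all-or-none member and the paralog pairs. Rplp2, Rps3, Rps15a, Rps19, Rps24, Rps26, Rpl11, Rpl37, Rpl37rt and the genes named from the 4 lists were outside that rule and were named after their values were seen. Some genes that these rules name are not reported here.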

Additional observations from a re-analysis of the deposited data

Results flagged for a closer look

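In 21 of the 104 groups of 4 Glut1 libraries checked (49 members and the class sums), 1 library stood apart from the other 3 by more than Dixon's critical gap for 4 values. Of these, 18 were in all-or-none members. The 49 include every all-or-none member, and these were picked because the same libraries differ widely. Neither count can therefore be set against a chance rate. In Glut1 Tnnt2low, the high libraries were replicate 3 for Rpl17 (95.9 CPM), replicate 1 for Rpl23a (70.8), Rpl36a (35.5) and Rps7 (70.6), replicate 2 for Rpl7l1 (45.2), Rps13 (26.3), Rps29 (23.1) and Rps4x (163), and replicate 4 for Rps10 (102), and the low ones replicate 3 for Rpl14 (23.2) and replicate 1 for Rpl7 (244). In Glut1 Tnnt2high, the high libraries were replicate 1 for Rpl27a (327), Rpl37a (73.9), Rps27l (36.3) and Rps3a1 (378), replicate 2 for Rpl14 (248) and Rpl36a (16.4), replicate 3 for Rpl10 (103) and Rps12 (12.9), and replicate 4 for Rps13 (24.0) and Rps4x (99.9). No single library held all of them.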

How the results depend on the processing

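The count of members lower in Glut1 Tnnt2low was 41 to 52 under the other scalings, without the filter, with only the groups compared and with DESeq2, and 32 to 46 without 1 library. Of all genes, 5.47% to 11.5% were called lower in the former settings and 5.2% to 8.23% without 1 Glut1 library. The count of members was 43 with the replicate block (39 of the 46 calls kept, 9.25% of all genes lower), 20 with the offset for length and GC content (2.98%) and 27 with the replicate block and that offset together (4.45%). It was 2 (with Rps3) among the members with under 5% shared windows, a set of 4. The replicate block changed the call of Rps4l and, in WT, of Rpl35 among the members named. Rpl3l turned to 0.12 with the offset and 0.14 with block and offset. In WT, 1 member was lower without the filter, with the replicate block and with DESeq2 (Rpl35 each time), and 1 was higher without the filter (Rps6) and with only the groups compared (Rpl36a). Of all genes there, 3 were lower and 3 higher without the filter (16911 genes), and 2 lower and 3 higher with only the groups compared (11385 genes). Between genotypes, dropping the filter called 2 lower (Rps3a1 and Rps6) and 1 higher (Rpl29) in Tnnt2low and 1 lower (Rpl19) and 2 higher (Rpsa among them) in Tnnt2high, and only the groups compared gave 1 higher in Tnnt2high (Rpsa). Of all 16911 genes without the filter, 5 were lower and 5 higher in Tnnt2low, and 5 lower and 8 higher in Tnnt2high. With only the groups compared, 1 of 11308 genes was lower and 2 were higher in Tnnt2high. Without 1 library, 0 to 1 member was lower in Glut1 Tnnt2low against WT (Rps6, without replicate 2 of WT Tnnt2low), and Rps3a1 ranged from −3.98 to 0.55, the latter without that library. In the interaction, dropping the filter called 2 lower (Rps3a1 and Rps6), where 9 of all 16911 genes were lower and 0 higher. The cause of these changes was not tested.

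With library sizes alone the median of all genes in the Glut1 comparison lay at 0.14, with 670 genes lower and 1694 higher, and the members' median at −0.78. Upper-quartile scaling gave 1166 lower and 801 higher. A replicate block could not be fitted for the genotype comparisons, whose libraries share no heart. At 4065306 to 9815069 gene reads per library, members under a few CPM rest on few reads, and with 2 WT libraries per population the absence of calls does not show that WT members did not differ.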
